A study of Homo sapiens with 12 samples.

Results

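Desmosomes are adhesive plaques that join neighbouring epithelial cells and tie the junction to keratin filaments inside each cell. Their extracellular part is built of desmosomal cadherins, the desmogleins (DSG) and desmocollins (DSC). In the cytoplasm the armadillo proteins plakoglobin (JUP) and the plakophilins (PKP) bind the cadherin tails, the plakin desmoplakin (DSP) links this plaque to keratins, and the tetraspan membrane protein PERP is needed for desmosomes to assemble stably in stratified epithelia. In stratified and glandular epithelia, basal cells are known for DSG3, DSC3 and PKP1, whereas DSG2, DSC2 and PKP2 occur in nearly all desmosome-bearing tissues, the heart included.

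The genes described here were 10 named members of this junction, DSG2, DSG3, DSC2, DSC3, JUP, PKP1, PKP2, PKP3, DSP and PERP. They were taken by gene name from the 58302 genes of the deposited table, and all 10 were found. RNA-seq was performed on 3 established prostate cell lines with 4 libraries each, to find genes that differed between a benign line and prostate cancer (PCa) lines. BPH-1 is a line immortalised from benign prostatic hyperplasia, PC3 was derived from a bone metastasis and DU145 from a brain metastasis of PCa. All 3 lines were labelled wild type with no treatment named, and grew in the same serum-supplemented medium. As benign cells were 1 line and cancer cells 2, a difference between lines and a difference between benign and cancer cells cannot be told apart. Labels did not say whether the 4 libraries of a line came from separate cultures, so p-values measure the spread between libraries, which may be technical.

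Library depth, recovered from the steps of the deposited values, was between 12950654 and 16309551 reads. Levels are given as FPKM (fragments scaled to gene length and to library depth), so levels of different genes are per length. Fold values are ratios of mean FPKM, and log2 fold changes are fitted differences of log2(FPKM + 1). Where a level is low, such a difference is smaller in size than the log2 of the ratio. The epithelial marker EPCAM was at 60.8 FPKM in BPH-1, 9.10 in PC3 and 0.376 in DU145, and CDH1 (E-cadherin) at 28.4, 0.786 and 0.18. KRT8 and KRT18 were at 19.7 FPKM or more in every line's mean. The libraries labelled DU145 were thus low for EPCAM and CDH1, 2 defining epithelial markers, and the identity of that culture was not tested beyond its label. Of the prostate lineage markers reported here, KLK3 was at 0 in all 12 libraries and HOXB13 was at 74.3 in PC3, 1.61 in BPH-1 and 0 in DU145. TMPRSS2 was at 0.137, 2.38 and 0.00532 FPKM in BPH-1, PC3 and DU145. The mesenchymal marker VIM was at 1.25 FPKM in BPH-1, 121 in PC3 and 61.9 in DU145. FN1 was at 79.5, 8.60 and 0.767, CDH2 at 5.10, 32.4 and 0.0489, and PDGFRB at 0.439 at most. Of endothelial and leukocyte markers, CD3E was at 0 throughout, PECAM1, CDH5 and VWF were at 1.68 or less, PTPRC at 1.35 or less and CD68 between 4.71 and 10.9 in the line means. In bulk libraries, fewer cells expressing a gene and less RNA per cell cannot be told apart.

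The 4 cadherin members lie in 1 cluster on the long arm of chromosome 18 (GRCh38), at 30990008 to 31549008, in the order DSC3, DSC2, DSC1, DSG1, DSG4, DSG3, DSG2. DSC3 and DSC2 are on the minus strand and the desmogleins on the plus strand. DSP (7541575 to 7586717) and PERP (138088505 to 138107511) lie on chromosome 6, JUP on chromosome 17, PKP1 on chromosome 1, PKP2 on chromosome 12 and PKP3 on chromosome 11. Few annotated genes overlap them. DSG2-AS1, antisense to DSG2, was at 0.0237 FPKM or less in each library and DSCAS, antisense to DSC2, at 0.279 or less. AC087588.2, a sense-strand transcript within PKP2, was at 0.872 FPKM in BPH-1, 0.377 in DU145 and 0.744 in PC3. The processed pseudogene AC087588.1, which also lies within PKP2, was at 0.

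Promoter sequence was read for the 8 members found in RefSeq (GRCh38.p14), as the 250 bases before the transcription start. PKP2 and PKP3 were not matched. The stretches below show 4 members whose RNA behaved differently: DSG2, lower in both cancer lines but read in all 3, DSG3, read only in BPH-1 apart from 4 reads, PKP1, high in BPH-1 and PC3, and DSP, low in both cancer lines. Bases that the table's annotation counts as gene are left off. Capitals mark the GC box (GGGCGG, the core bound by SP1) and the E-box (CACCTG, bound by the SNAI and ZEB repressors), each on either strand.

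DSG2, chr18:31497927-31498042, plus strand: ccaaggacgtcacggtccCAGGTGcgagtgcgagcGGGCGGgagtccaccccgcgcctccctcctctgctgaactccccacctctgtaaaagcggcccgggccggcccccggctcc
DSG3, chr18:31447491-31447740, plus strand: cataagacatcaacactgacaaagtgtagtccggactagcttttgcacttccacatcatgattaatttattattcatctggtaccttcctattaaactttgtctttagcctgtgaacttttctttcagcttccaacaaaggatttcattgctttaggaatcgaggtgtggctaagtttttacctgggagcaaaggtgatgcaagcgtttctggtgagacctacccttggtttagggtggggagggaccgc
PKP1, chr1:201283256-201283451, plus strand: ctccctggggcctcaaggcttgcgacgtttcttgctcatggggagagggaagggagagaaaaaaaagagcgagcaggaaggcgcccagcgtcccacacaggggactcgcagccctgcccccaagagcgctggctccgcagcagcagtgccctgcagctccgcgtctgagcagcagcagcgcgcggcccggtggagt
DSP, chr6:7541421-7541574, plus strand: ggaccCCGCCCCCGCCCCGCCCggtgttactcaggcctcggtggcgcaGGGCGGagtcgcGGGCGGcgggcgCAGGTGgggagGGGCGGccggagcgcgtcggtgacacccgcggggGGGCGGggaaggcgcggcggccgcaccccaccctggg

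The DSG3 window had the lowest GC content of the 8, at 42.8% with 4 CpG dinucleotides, against 59.6% (DSC2) to 78.0% (DSP) in the other 7. The median of all 35116 RefSeq promoters was 58.0% GC with 11 CpG. GC boxes were present in 6 of the 8 members' windows, DSG3 and DSC3 being without one, against 42.6% of all promoters. DSP held 7 of them, some overlapping. The E-box was present in 3 of the 8 (DSG2 and DSP with 2 each, DSC2 with 1), against 17.5% of all promoters. The AP-1 letters TGANTCA were present in 1 (PERP, 101 bases before the start), against 6.57%. The grainyhead-like core ACCGGT (1.45% of promoters) and the letters TATAAA (10.7%) were in none of the 8 windows. All were searched on both strands, and a match or its absence describes these letters only.

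**Figure D1:**
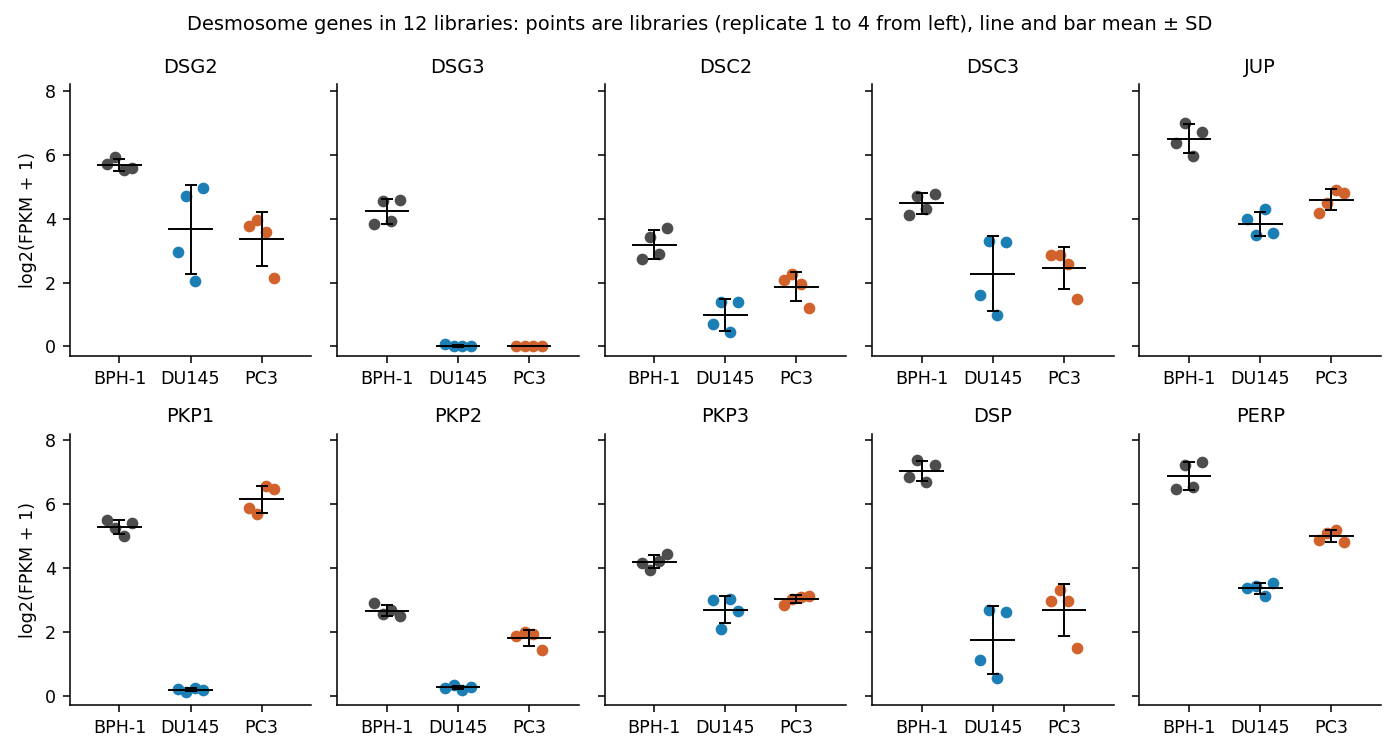
Level of each desmosome gene as log2(FPKM + 1) (vertical axis) in the 4 libraries of BPH-1, DU145 and PC3 (points, replicates 1 to 4 from left to right), with the mean (line) and SD (bar) of each line. BPH-1 libraries lay above those of both cancer lines for 9 genes, and PKP1 was the exception, being highest in PC3.

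Desmoglein RNA fell in both cancer lines, and DSG2 made up nearly all of what was left. DSG3, the basal-cell desmoglein, was at 13.3, 22.4, 14.3 and 22.9 FPKM in BPH-1 replicates 1 to 4, which were 6226 reads in all. It had 0 reads in each of the 4 PC3 libraries, and in DU145 it was at 0.0447 FPKM (4 reads) in replicate 1 and at 0 in the other 3. Every BPH-1 library was thus far above every cancer library. With the floor of 3 reads per library, the BPH-1 mean was at least 449-fold higher than PC3. Against the 4 reads of DU145 the ratio was 1545, with a 95% counting interval of 604 to 5672 that covers counting error of those 4 reads only. limma gave DSG3 adjusted p-values of 1.17e-07 (PC3) and 2.72e-07 (DU145). Its fitted log2 fold changes of -4.23 and -4.21 depend on the pseudocount. DSG3 passed the filter only through the BPH-1 libraries, so it could only be called lower.

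DSG2, the desmoglein of simple epithelia and most other desmosomes, was at 51.7, 60.4, 45.1 and 46.5 FPKM in the BPH-1 libraries. In DU145 it was at 6.70, 25.1, 3.16 and 29.8, and in PC3 at 12.6, 14.7, 11 and 3.40. No library of either cancer line reached the lowest BPH-1 library, while DU145 and PC3 overlapped and DU145 replicates 2 and 4 stood well above replicates 1 and 3. The mean was 4.89-fold lower in PC3 (log2 fold change -2.33 ± 0.35 SE, adjusted p = 0.000287, limma) and 3.14-fold lower in DU145 (-2.03 ± 0.56, adjusted p = 0.0102). Without DU145 replicates 1 and 3 the second change was -0.86, and without replicates 2 and 4 it was -3.19, with adjusted p-values of 0.00203 and 2.98e-05.

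Both desmocollins were also lower in both cancer lines as deposited, though the DSC2 change in PC3 was -0.10 (adjusted p = 0.729) with each library's GC trend divided out. DSC3, the basal-cell desmocollin, was at 16.3, 25.1, 18.7 and 26.5 FPKM in BPH-1. It was at 2.02, 8.79, 0.982 and 8.54 in DU145, and at 6.27, 6.28, 4.99 and 1.83 in PC3. BPH-1 was apart from both lines, and within DU145 replicates 2 and 4 were again the high pair. The mean was 4.47-fold lower in PC3 (log2 fold change -2.02 ± 0.30 SE, adjusted p = 0.000268) and 4.25-fold lower in DU145 (-2.19 ± 0.49, adjusted p = 0.00319). The DU145 change was -1.20 without replicates 1 and 3 and -3.18 without replicates 2 and 4. DSC2, the widely expressed desmocollin, was at 5.70, 9.77, 6.39 and 12 FPKM in BPH-1. It was at 0.612, 1.65, 0.352 and 1.64 in DU145, where replicates 2 and 4 were again high, and at 3.24, 3.78, 2.86 and 1.30 in PC3. It was 3.03-fold lower in PC3 (-1.32 ± 0.28, adjusted p = 0.00210) and 7.97-fold lower in DU145 (-2.21 ± 0.29, adjusted p = 0.000123). The DU145 change of DSC2 was -1.79 without replicates 1 and 3 and -2.63 without replicates 2 and 4.

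DSC1, DSG1 and DSG4, which lie between DSC2 and DSG3 on the chromosome and belong to cornified or hair epithelia, were too low to be tested. They had 4, 40 and 11 reads over the 4 BPH-1 libraries and 0 to 4 reads over those of DU145 or PC3. Of 5 flanking genes tested on the DSG2 side, 3 were lower and 0 higher in PC3, and 1 was lower and 1 higher in DU145. Over all genes tested, 40.4% were lower and 27.1% higher in PC3, and 32.4% lower and 30.3% higher in DU145. TRAPPC8, a trafficking-complex subunit, fell in PC3 (-1.48, adjusted p = 4.21e-05) and in DU145 (-1.23, adjusted p = 0.00306). RNF138, a ubiquitin ligase, and GAREM1, a GRB2-binding adaptor, fell in PC3 (-1.66, adjusted p = 6.11e-05, and -0.70, adjusted p = 0.000665), and their differences in DU145 were -0.85 (adjusted p = 0.0654) and 0.01 (adjusted p = 0.967). RNF125, another ubiquitin ligase, rose in DU145 (1.26, adjusted p = 0.00550) and had a difference of 0.35 in PC3 (adjusted p = 0.0912). B4GALT6, a galactosyltransferase, had log2 differences from BPH-1 of -0.34 in PC3 (adjusted p = 0.0504) and 0.03 in DU145 (adjusted p = 0.909).

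The armadillo proteins went different ways. JUP, which binds both desmosomal and classical cadherins, was at 81.1, 126, 60.7 and 104 FPKM in BPH-1, at 15, 10.3, 18.6 and 10.6 in DU145 and at 17.2, 21.6, 28.8 and 26.8 in PC3. All BPH-1 libraries lay above all others, and here DU145 replicates 1 and 3 were the higher pair. JUP was 3.94-fold lower in PC3 (log2 fold change -1.91 ± 0.24 SE, adjusted p = 7.91e-05) and 6.82-fold lower in DU145 (-2.67 ± 0.26, adjusted p = 1.83e-05).

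PKP1, the plakophilin of stratified and basal epithelia, was the 1 member that rose. It was at 44.4, 36.7, 30.7 and 41.3 FPKM in BPH-1 and at 57.7, 50.4, 93.0 and 86.9 in PC3. In DU145 it was at 0.155, 0.0908, 0.182 and 0.132, from 58 reads over 4 libraries. All 3 lines were separate from one another, in the order PC3, BPH-1, DU145. PKP1 was 1.88-fold higher in PC3 than in BPH-1 (0.86 ± 0.21 SE, adjusted p = 0.00489), and 273-fold lower in DU145 than in BPH-1 (-5.09 ± 0.16 on the log2(FPKM + 1) scale, adjusted p = 3.51e-08). In DU145 PKP1 passed the filter only through BPH-1, so it could only be called lower there. With the trend of each library against GC content divided out, the PC3 rise was 0.34 with adjusted p = 0.0906.

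PKP2, the plakophilin of simple epithelia and heart, was at 6.45, 4.87, 5.41 and 4.69 FPKM in BPH-1. It was at 2.62, 3.01, 2.80 and 1.72 in PC3 and at 0.190, 0.254, 0.143 and 0.208 in DU145. The 3 lines did not overlap, in the order BPH-1, PC3, DU145. It was 2.11-fold lower in PC3 (-0.85 ± 0.15 SE, adjusted p = 0.000874) and 26.9-fold lower in DU145 (-2.40 ± 0.14, adjusted p = 7.05e-07). PKP3, found in most epithelial desmosomes, was the plakophilin that differed least between the cancer lines, from 14.5 to 20.8 FPKM in BPH-1, 3.29 to 7.20 in DU145 and 6.18 to 7.76 in PC3. Its log2 fold change was -1.17 ± 0.13 SE in PC3 (adjusted p = 3.71e-05) and -1.50 ± 0.23 in DU145 (adjusted p = 0.000287).

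DSP, the link to keratin filaments, was the member with the highest mean level in BPH-1, and both cancer lines were far below it. It was at 115, 166, 102 and 147 FPKM in BPH-1, at 1.17, 5.37, 0.467 and 5.2 in DU145 and at 6.88, 8.85, 6.80 and 1.81 in PC3. The lowest BPH-1 library was far above the highest cancer library, while DU145 and PC3 overlapped. DSP was 21.8-fold lower in PC3 (log2 fold change -4.35 ± 0.36 SE, adjusted p = 6.22e-06) and 43.5-fold lower in DU145 (-5.29 ± 0.45, adjusted p = 8.09e-06). The DU145 change was -4.39 without replicates 1 and 3 and -6.20 without replicates 2 and 4.

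PERP was at 87.1, 147, 91.4 and 157 FPKM in BPH-1, at 28.5, 33.2, 35.5 and 26.9 in PC3 and at 9.34, 9.80, 7.76 and 10.6 in DU145. The 3 lines were apart in the order BPH-1, PC3, DU145. PERP was 3.89-fold lower in PC3 (-1.88 ± 0.21 SE, adjusted p = 3.78e-05) and 12.9-fold lower in DU145 (-3.51 ± 0.22, adjusted p = 1.27e-06).

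Over the list, all 10 members passed the filter in both comparisons with BPH-1. DSG3 did so only through the BPH-1 libraries and could only be called lower. The same held for PKP1 in DU145, with 58 reads over its libraries. In PC3, 9 were lower and 1 higher at an adjusted limma p under 0.05, where 40.4% of the 16408 genes tested were lower and 27.1% higher. In DU145, 10 of 10 were lower, against 32.4% of 17016 genes lower and 30.3% higher. Libraries did not overlap for any of the 10 in either comparison, against 64.4% of genes in PC3 (in either direction) and, for lower values, 30.6% in DU145. Calls at this threshold were thus common among all genes. The median log2 fold change of the members was -1.90 in PC3 and -2.53 in DU145, beside -0.13 and -0.03 over all genes tested. Moving DSG3 alone to its bound left both medians as they were. Other members at low levels depend on the pseudocount too. With 0.1 in place of 1, DU145 changes were -4.19 for PKP2 and -3.04 for DSC2, so the DU145 median holds for a pseudocount of 1. A fall of more than 1 on the log2 scale at that threshold was seen for 8 members in PC3 and 10 in DU145, against 17.6% and 17.3% of genes. The exact permutation test gave each member p = 0.0286 in each comparison with BPH-1, the smallest value that 4 against 4 libraries allow. The comparisons share the BPH-1 libraries.

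Between the cancer lines 9 members were tested, DSG3 having too few reads. PC3 was higher for 5 (DSC2, JUP, PKP1, PKP2, PERP) and lower for 0, where 20.0% of 16420 genes were higher in PC3 and 28.3% lower. Libraries of the lines did not overlap for 3 of these, PKP1, PKP2 and PERP, where 19.1% of genes were higher in PC3 without overlap. By ratio of mean FPKM, PKP1 was 514-fold higher in PC3, PKP2 12.8-fold and PERP 3.31-fold. The limma differences of log2(FPKM + 1) were 5.95 ± 0.21 SE (adjusted p = 1.31e-07), 1.55 ± 0.14 (adjusted p = 2.14e-05) and 1.62 ± 0.15 (adjusted p = 2.32e-05). For PKP1 and PKP2 these differences were compressed by the low DU145 levels. PKP1 passed the filter here only through the PC3 libraries and could only be called higher. The differences for DSC2 (0.89 ± 0.30, adjusted p = 0.0343) and JUP (0.76 ± 0.23, adjusted p = 0.0213) were smaller and the lines overlapped. Leaving out single libraries took the adjusted p of DSC2 to as much as 0.0927 and that of JUP to as much as 0.0638. For DSG2, DSC3, PKP3 and DSP the differences of -0.30 ± 0.67, 0.17 ± 0.56, 0.33 ± 0.22 and 0.94 ± 0.56 had adjusted p-values of 0.741, 0.826, 0.249 and 0.201. At unadjusted level 0 of these 4 reached 0.05 either. Calls in this comparison moved with the DU145 replicates used. Without replicates 1 and 3 DSC2 was at 0.47 (adjusted p = 0.228), while DSG2 (-1.46, adjusted p = 0.0467) and PKP3 (0.64, adjusted p = 0.0258) passed. Without replicates 2 and 4 JUP was at 0.45 (adjusted p = 0.126), while DSP passed (1.85, adjusted p = 0.0218).

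**Figure D2:**
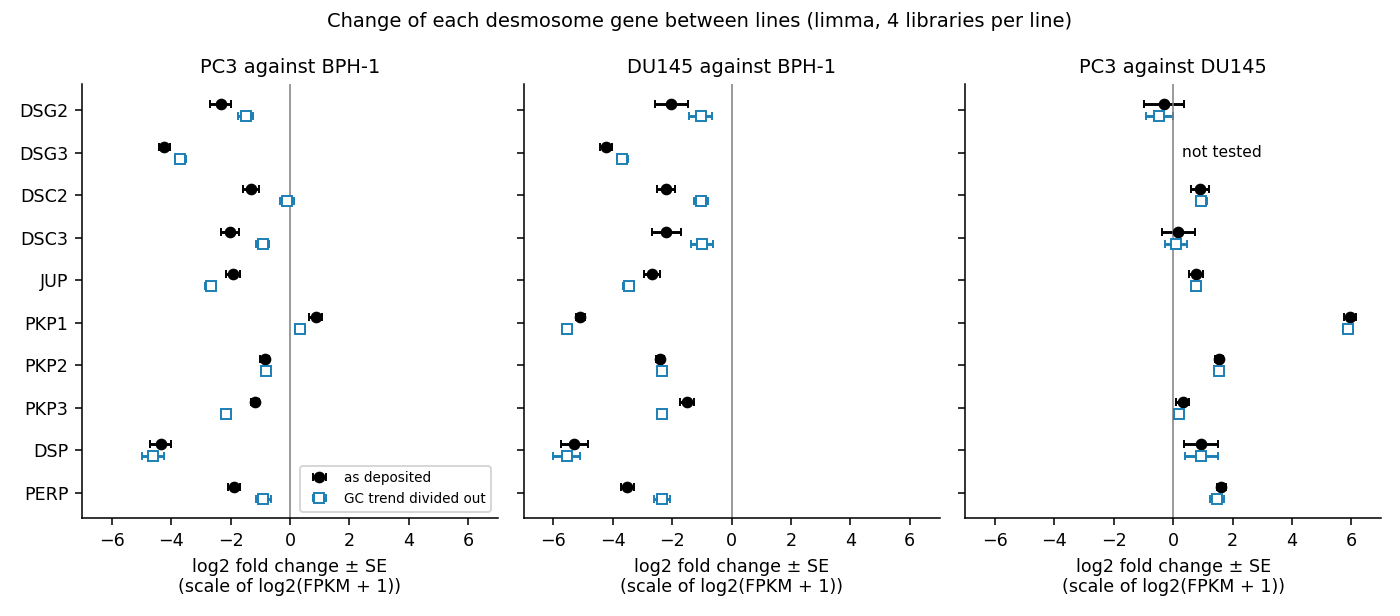
Log2 fold change ± SE on the log2(FPKM + 1) scale (horizontal axis) of each desmosome gene in the 3 comparisons, as deposited (filled circles) and after each library's GC trend was divided out (open squares). Against BPH-1 the changes are negative except for PKP1 in PC3 (0.86), and DSC2 in PC3 moves from -1.32 to -0.10.

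The replicate split of DSG2, DSC2 and DSC3 also ran through other genes of low GC content. In DU145 the 1767 genes of 38% to 42% GC deviated from the line's mean by a median of -0.28, 0.47, -0.50 and 0.32 on the log2 scale in replicates 1 to 4, and in PC3 by 0.27, 0.21, -0.09 and -0.38. In BPH-1 these medians were between -0.05 and 0.06. Genes over 60% GC went the other way in DU145, at 0.17, -0.29, 0.29 and -0.17. DSG2 (41.8% GC) deviated by -0.72, 1.04, -1.61 and 1.28 in DU145, in the direction of other low-GC genes but by more. Its SD over the DU145 libraries was 1.39, and 1.56% of the 2112 genes within 2 percentage points of its GC content had an SD as large. For DSC3 (40.0% GC) the SD was 1.17, as large in 3.75% of genes of like GC, and for DSC2 (38.4% GC) it was 0.50, as large in 43.7%. These SDs of log2(FPKM + 1) shrink at low levels, and genes were matched on GC content but not on level. In FPKM the highest DU145 library was 9.42-fold above the lowest for DSG2, 8.96-fold for DSC3 and 4.67-fold for DSC2. DSP (48.2% GC) deviated by -0.62, 0.93, -1.19 and 0.89, whereas the 1826 genes of 46% to 50% GC deviated by medians of only -2.65e-05, 0.06, -0.10 and 0.05. The SD of DSP was 1.07, as large in 2.38% of genes of like GC. PC3 replicate 4 was low for the same genes, DSG2 deviating by -1.23, DSC3 by -0.95 and DSP by -1.19. PERP (41.2% GC) showed the split in the same order but by less, at 0.0019, 0.07, -0.24 and 0.17, with an SD of 0.17 that 88.4% of genes of like GC reached. JUP (61.9% GC) and PKP3 (68.8%) followed the genes of high GC in DU145. The part that GC content has in these splits was not tested further.

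**Figure D3:**
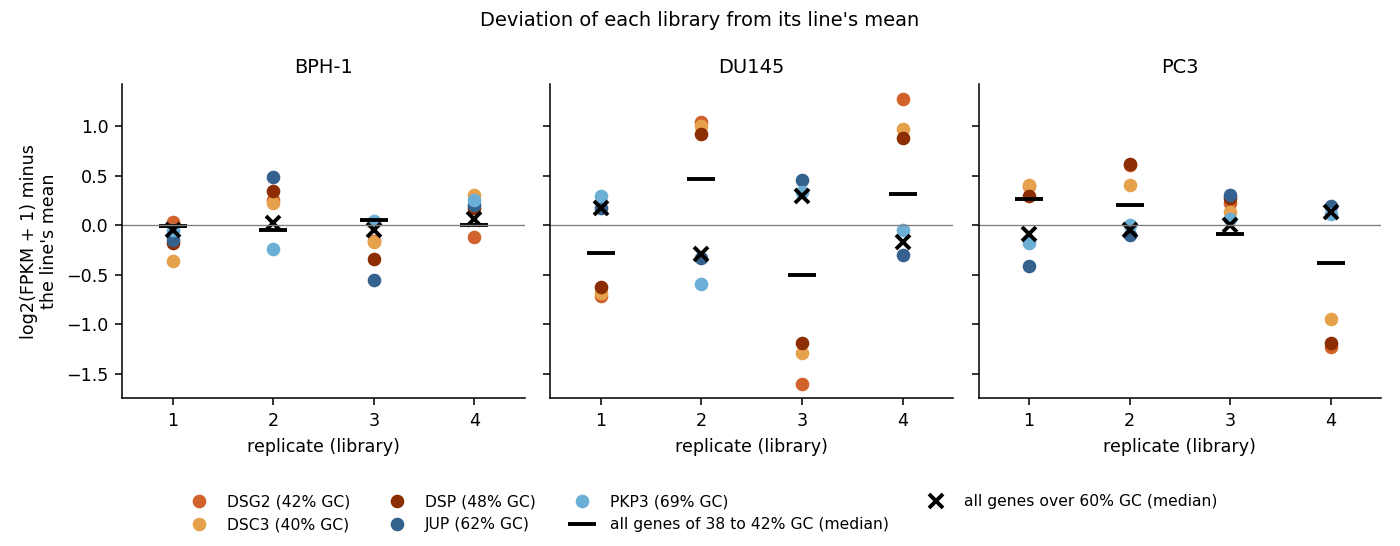
Deviation of each library from its line's mean in log2(FPKM + 1) (vertical axis) for 5 desmosome genes (coloured points) and the median of all genes of 38% to 42% GC (black bars) or over 60% GC (crosses), by replicate. In DU145 replicates 2 and 4, DSG2, DSC3 and DSP lie 0.89 to 1.28 above the mean, and JUP deviates by -0.34 and -0.30.

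Dividing out each library's GC trend changed the size of several falls. In PC3 the 3 desmosomal cadherins still read there moved towards BPH-1, DSG2 to -1.49 (adjusted p = 0.000649), DSC3 to -0.92 (adjusted p = 0.00534) and DSC2 to -0.10 (adjusted p = 0.729), and PERP moved to -0.89. The GC-rich JUP and PKP3 moved away from it, to -2.67 and -2.15. In DU145 DSG2 went to -1.03 (adjusted p = 0.0419), DSC3 to -0.997 (adjusted p = 0.0352), DSC2 to -1.04 (adjusted p = 0.00401) and PERP to -2.35 (adjusted p = 8.20e-05), all nearer to BPH-1. DSP changed little, at -4.60 in PC3 and -5.55 in DU145. With this correction 8 members were lower and 0 higher in PC3 (median -1.20), and 10 of 10 were lower in DU145 (median -2.35). Of all genes tested, 43.1% were then lower and 22.6% higher in PC3, and 36.9% lower and 25.5% higher in DU145. The SE of the DSG2 change in DU145 went from 0.56 to 0.39, and that of DSP stayed at 0.45. A true difference between lines is removed as well where it runs along GC content.

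Because FPKM is per length, paralogs could be set side by side within a library. DSG3 made up 26.2% ± 5.25 (SD, n = 4) of the 2 desmogleins in BPH-1, 0.165% ± 0.331 in DU145 and 0 in PC3, so the desmoglein RNA read in the cancer lines was nearly all DSG2. DSC3 remained the larger desmocollin in each line, with 72.4% ± 2.60 in BPH-1, 79.6% ± 5.31 in DU145 and 62.6% ± 3.11 in PC3. Among plakophilins PKP1 made up 62.5% ± 4.11 in BPH-1 and 87.6% ± 3.27 in PC3 but 2.35% ± 0.162 in DU145, where PKP3 made up 93.8% ± 2.35. PKP2 was the smallest share in BPH-1 and PC3, at 8.83% ± 1.33 and 3.35% ± 1.39, and was 3.80% ± 2.25 in DU145. These shares rest on the gene lengths used. With lengths of merged exons PKP1 was 49.1% in BPH-1, 80.5% in PC3 and 1.30% in DU145, and DSC3 was 67.1% to 82.6% over the 3 lines.

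**Figure D4:**
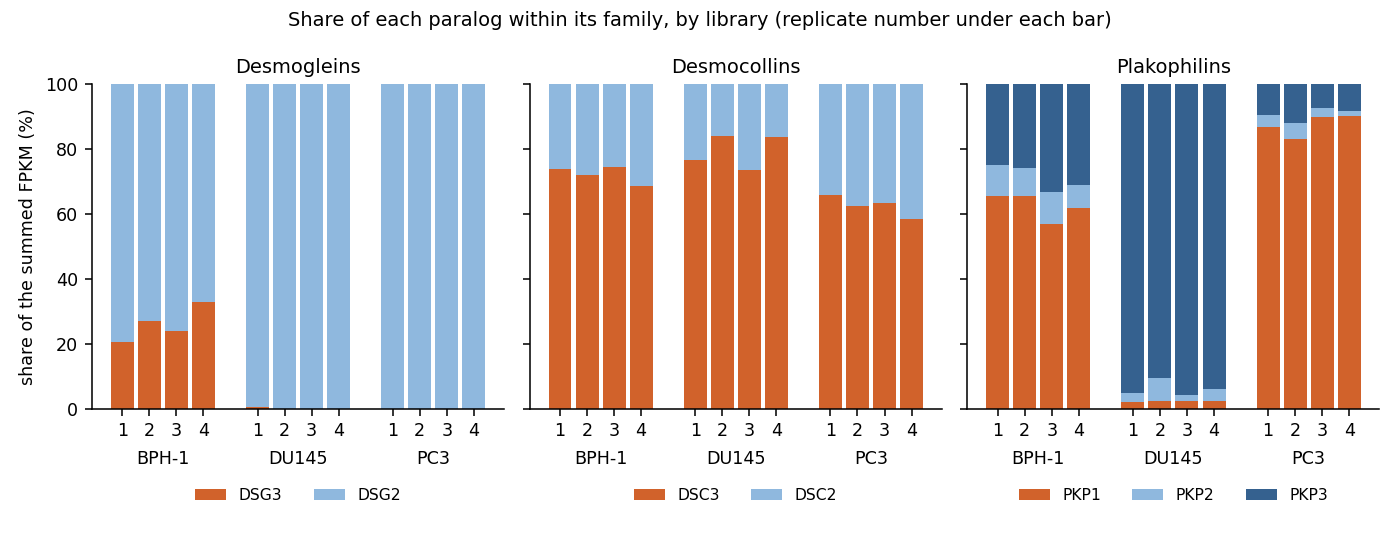
Share of each paralog in the summed FPKM of the desmogleins DSG2 and DSG3, the desmocollins DSC2 and DSC3 and the plakophilins PKP1 to PKP3 (vertical axis, percent) in each of the 12 libraries. DSG3 is seen in BPH-1 at 20.5% to 32.9%, and PKP3 takes 90.5% to 95.7% of the plakophilins in DU145.

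Summed over the 10 members, the level was 507 ± 108 FPKM in BPH-1, 160 ± 23.0 in PC3 and 54.4 ± 16.4 in DU145 (SD, n = 4). The 4 cadherins summed to 99.3 ± 16.1, 18 ± 8.05 and 22.4 ± 18 FPKM in BPH-1, PC3 and DU145, whereas the 3 plakophilins summed to 61.0 ± 7.11, 81.7 ± 21.3 and 6.02 ± 1.81. DSP per cadherin FPKM was 1.33 ± 0.0868 in BPH-1, 0.327 ± 0.0399 in PC3 and 0.127 ± 0.0194 in DU145, and the libraries of the 3 lines did not overlap in this ratio.

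Other genes of the junction and of its surroundings were read from lists. Of 7 other desmosome and cornified-envelope genes, 4 were tested in PC3 and 3 in DU145, with 2 and 1 lower and 0 higher, where 40.4% of all genes were lower in PC3 and 32.4% in DU145. After GC correction 2 of 4 and 3 of 3 were lower, beside 43.1% and 36.9% of all genes. PPL (periplakin), a plakin that binds keratin, was at 13.6 FPKM in BPH-1, 2.83 in PC3 and 2.59 in DU145 (-1.98, adjusted p = 0.00108, and -2.01, adjusted p = 0.000491). PKP4, an armadillo relative, fell in PC3 (-0.57, adjusted p = 0.00304), and its difference in DU145 was -0.55 (adjusted p = 0.0830), or -0.93 (adjusted p = 0.0157) with the GC trend divided out. EVPL (envoplakin), the partner of PPL, had a DU145 difference of -0.38 (adjusted p = 0.241), or -1.08 (adjusted p = 0.00508) with that correction.

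Keratins form the filaments that desmoplakin anchors. Of 11, 6 were lower and 2 higher in PC3, and 7 lower and 2 higher in DU145 (medians -2.17 and -2.19). Of all genes tested, 40.4% were lower and 27.1% higher in PC3, and 32.4% lower and 30.3% higher in DU145. With the GC trend divided out 8 keratins were lower and 2 higher in PC3, and 9 lower and 1 higher in DU145. The all-gene shares were then 43.1% lower and 22.6% higher in PC3, and 36.9% lower and 25.5% higher in DU145. The basal keratins KRT5 and KRT14 were at 147 and 203 FPKM in BPH-1, and at 0.0118 and 0.00662 in PC3 and 0.216 and 0.185 in DU145. KRT17 and KRT6A, at 213 and 116 in BPH-1, were at 0.282 or less in the means of both cancer lines. KRT5, KRT14, KRT17 and KRT6A had 9 reads or fewer over the PC3 libraries, KRT6B had 3 and KRT16 had 27. All 6 keratins called lower in PC3 thus passed the filter only through BPH-1 and could only be called lower. The same held for KRT14, KRT6A and KRT6B in DU145, with 35 reads or fewer. It also held there for KRT5 and KRT17, whose lowest DU145 libraries were at 0 and 0.0672 FPKM. This limits what the keratin counts show. Some reads of KRT6A, KRT14 and KRT17 may be shared with near-identical family members. KRT7, a keratin of simple epithelia, rose in both lines (4.87, adjusted p = 2.02e-08, in PC3 and 6.69, adjusted p = 2.48e-08, in DU145). Other simple-epithelial keratins differed in pattern as deposited, KRT19 rising in PC3 (2.84, adjusted p = 9.48e-06) and KRT18 in DU145 (0.89, adjusted p = 0.00614). KRT8 had differences of -0.40 and -0.66 (adjusted p = 0.191 and 0.0801). With the GC trend divided out, KRT18 in DU145 was at 0.17 (adjusted p = 0.289, limma). KRT8 was then lower in PC3 (-0.98, adjusted p = 0.00208) and in DU145 (-1.38, adjusted p = 0.00062). KRT15, a basal keratin, fell in DU145 (-0.80, adjusted p = 0.0104) and had a difference of 0.25 in PC3 (adjusted p = 0.397). Between the cancer lines KRT19 was higher in PC3 (3.30, adjusted p = 7.74e-06) and KRT7 (-1.82, adjusted p = 7.38e-05) and KRT18 (-1.15, adjusted p = 0.00171) were lower.

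In hemidesmosomes, which tie keratins to the basement membrane, 3 of 6 genes were lower and 2 higher in PC3, and 4 lower and 2 higher in DU145. Of all genes tested, 40.4% were lower and 27.1% higher in PC3, and 32.4% lower and 30.3% higher in DU145. COL17A1 was at 95.7 FPKM in BPH-1, 0.276 in PC3 and 2.83 in DU145, and ITGA6, the integrin alpha chain, at 75.7, 24.3 and 7.69. DST, which holds a plakin isoform of hemidesmosomes, had log2 fold changes of -2.77 in PC3 and -2.65 in DU145. PLEC (plectin), another plakin, rose in PC3 (2.40, adjusted p = 6.29e-07), and ITGB4, the partner of ITGA6, fell in DU145 (-3.99, adjusted p = 3.35e-07). Plakins thus moved in opposite directions, with DSP, PPL and DST lower and PLEC higher in PC3. With the GC trend divided out, 4 of the 6 were lower and 2 higher in PC3, and 4 were lower and 0 higher in DU145. The all-gene shares were then 43.1% lower and 22.6% higher in PC3, and 36.9% lower and 25.5% higher in DU145.

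In adherens junctions 3 of 6 genes were lower and 1 higher in PC3, where 40.4% of all genes were lower, and 4 were lower and 1 higher in DU145, where 32.4% were lower. With the GC trend divided out 4 were lower and 1 higher in each line, where 43.1% (PC3) and 36.9% (DU145) of all genes were lower. CDH1, which is bound by JUP as well as by other catenins, fell in PC3 (-3.98, adjusted p = 2.81e-06) and in DU145 (-4.55, adjusted p = 8.86e-07), as did CDH3 (P-cadherin, -3.68 and -3.00). CTNNA1, the actin-linking alpha-catenin, was at 13.8 FPKM in BPH-1, 32.8 in DU145 and 0.0495 in PC3. It fell in PC3 (-3.81, adjusted p = 2.15e-08) and rose in DU145 (1.20, adjusted p = 7.04e-05), whereas VCL (vinculin) rose in PC3 (0.77, adjusted p = 0.00561).

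Of 9 regulators known to favour epithelial junction genes, 8 were lower in PC3 and 9 in DU145, and 0 were higher (median -2.21 in each, beside the all-gene medians above). Of all genes tested, 40.4% were lower in PC3 and 32.4% in DU145. TP63, the master regulator of basal epithelium, was at 12.9 FPKM in BPH-1, 0.00876 in PC3 and 0.0286 in DU145. GRHL2, a grainyhead-like factor, was at 12.7, 0.0201 and 0.0147 in the same order. TP63 and GRHL2 had 23 reads or fewer over the libraries of each cancer line. Both thus passed the filter only through BPH-1 and could only be called lower. The same held for OVOL1, with 4 reads or fewer over either cancer line. It also held for GRHL3 and ESRP1 in PC3 (5 and 30 reads) and for OVOL2 in DU145 (17 reads). This limits what the counts show. ESRP1, which acts on splicing and not on transcription, was at 11.9, 0.0506 and 0.383. With the GC trend divided out 9 of 9 were lower in each line, beside 43.1% of all genes in PC3 and 36.9% in DU145. As deposited, TP63, GRHL2 and ESRP1 each fell in both lines, with adjusted limma p-values of 4.19e-07 or lower.

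Of 5 repressors of epithelial junction genes, 3 were higher and 1 lower in PC3, and 2 higher and 2 lower in DU145. Over all genes tested, 27.1% were higher and 40.4% lower in PC3, and 30.3% higher and 32.4% lower in DU145. SNAI1 was at 0.489 FPKM in BPH-1, 7.64 in PC3 and 6.17 in DU145. SNAI2 went the other way, at 65.3, 8.51 and 5.50, with log2 fold changes of -2.82 (adjusted p = 3.50e-06) and -3.40 (adjusted p = 4.89e-06). TWIST1 rose in PC3 (1.20) and fell in DU145 (-2.13), and ZEB1 stayed at 0.266 FPKM or less in every line's mean although it rose in both (0.22 and 0.27). SNAI1 and ZEB1 had 51 reads each over the BPH-1 libraries, with lowest libraries at 0.154 and 0.0162 FPKM. They passed the filter only through the cancer lines and could only be called higher. TWIST1 had 4 reads in DU145 and could only be called lower there. This limits what the repressor counts show. Among 6 enzymes that modify or shed desmosomal proteins, 2 were higher and 3 lower in PC3, and 1 higher and 2 lower in DU145. The all-gene shares are those given for the repressors. After dividing out the GC trend, 1 was higher and 2 lower in PC3, and 2 were higher and 4 lower in DU145. The all-gene shares were then 22.6% higher and 43.1% lower in PC3, and 25.5% higher and 36.9% lower in DU145. PRKCA (protein kinase C alpha), whose activity weakens desmosomal adhesion, rose by 1.05 in PC3 and 2.50 in DU145. GSK3B, a kinase acting on desmoplakin, fell in both (-0.82 and -1.78), as did ADAM10, a sheddase of cadherins (-2.03 and -1.49). ADAM17, another sheddase, was at 18.7 FPKM in BPH-1 and 8.90 in PC3 (adjusted p = 0.000261), but its log2 fold change was -0.15 (adjusted p = 0.341) with the GC trend divided out.

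**Figure D5:**
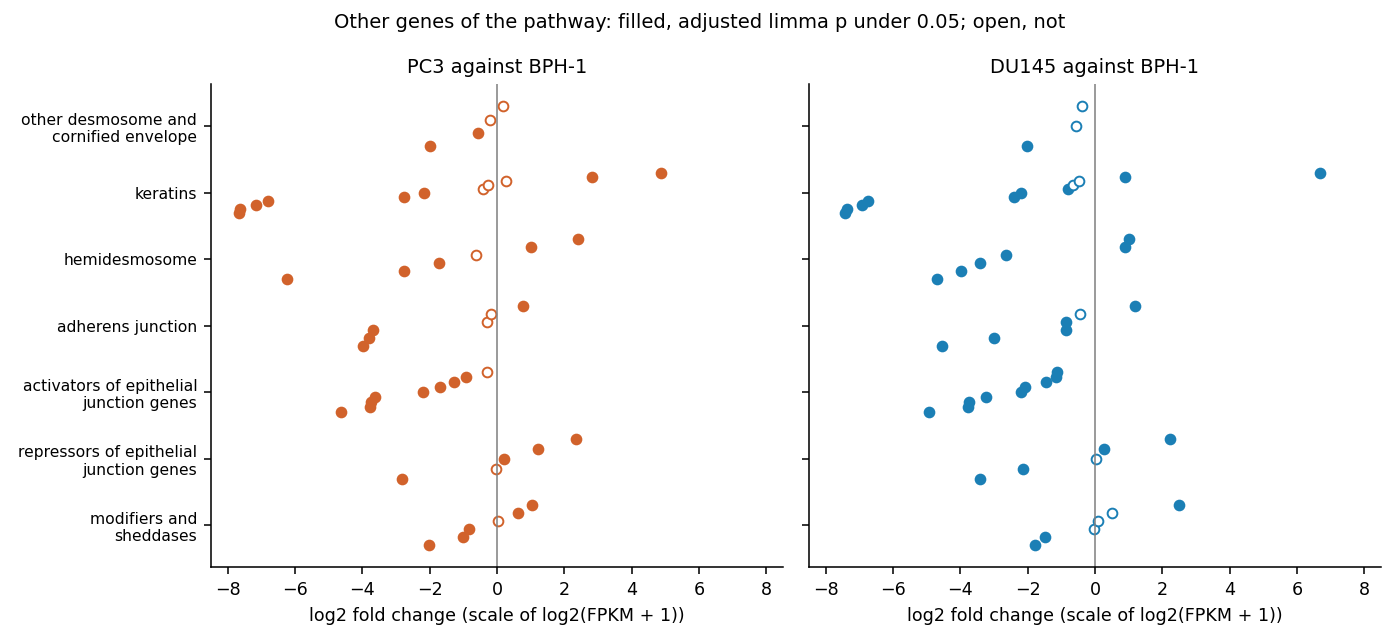
Log2 fold change against BPH-1 on the log2(FPKM + 1) scale (horizontal axis) of the genes in 7 lists around the desmosome, in PC3 (left) and DU145 (right), with filled points for an adjusted limma p under 0.05. Among regulators that favour junction genes 8 of 9 (PC3) and 9 of 9 (DU145) were lower, beside 40.4% and 32.4% of all genes. Several of these passed the filter only through BPH-1 and could only be called lower. Keratins lay on both sides, from -7.67 to 4.87 in PC3.

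For each member, the genes with the most similar profile over the 12 libraries were found by the root mean square (RMS) difference of log2(FPKM + 1), each gene centred on its own mean, among 7255 genes. The libraries fall into 3 lines, so likeness mostly reflects the 3 line means. DSG2 was closest to CPD (RMS difference 0.161), GNG12 and AFF4, and DSC3 to CD109 (0.182), FANCI and NUP160. DSG3 was closest to SAMD9 (0.186), IFI44 and ST14, and DSC2 to DYNC1I2 (0.238), SPIN4 and STIL. PKP1 had less close neighbours, HSPA1A (0.391), PXDN and FGFBP1, where HSPA1A can share reads with its near-identical copy HSPA1B. DSP had the least close ones, ATAD2 (0.568), ANLN and TOP2A. JUP was closest to CDC42BPG (0.274), ARSI and SNN, PKP2 to LPAR3 (0.232), CARD6 and AGMAT, PKP3 to SERINC2 (0.206), HOMEZ and CCDC120, and PERP to LGALS3BP (0.306), IRX2 and MAP7.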

How the data were processed

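Total RNA of each line was isolated with TRIzol, and libraries were made with an NEBNext Ultra kit, per the labels. The submitters' processing notes name CASAVA 1.8, HISAT2 2.1.0, edgeR and GRCh38 (hg38), with no roles; strand use and filters are not given in the sources used here. The authors deposited 1 table whose values had the form of FPKM, although its header names no unit. It held 12 value columns, all assigned by name, and 0 were left out. Gene length was found from the values: with the sum of distinct GENCODE 29 exons, 93.2% to 94.4% of low values (up to 20 reads) were whole reads within 0.05 reads, and 263 genes without a length were left out of the tests. Reads of DSC2 did not come out whole and are approximate.

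A count model had been planned in case of counts. As the table held FPKM, limma 3.58.1 (R 4.3.3, intensity trend) was fitted to log2(FPKM + 1), with only the compared lines in each fit. A gene was tested if it had, at a library of median depth, the FPKM of 10 reads in 4 or more libraries, and 15 reads over all. Adjusted p-values are Benjamini-Hochberg over all genes tested. The GC correction divided out a spline (5 degrees of freedom) per library, fitted over genes with a mean of at least 50 reads. On simulated data for PC3 against BPH-1 (16450 genes), 56% of 2-fold and 100% of 4-fold changes were recovered, with 4 unchanged genes in 160 calls. With a simulated GC trend shared by all PC3 libraries and no gene changed (16565 genes), calls fell from 4251 to 0 after correction. In the deposited libraries GC trends differed between replicates of a line, a setting that was not simulated.

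Members, lists and tests were chosen with earlier results of these data known. Of each list other than the members, up to 4 called genes with the largest absolute log2 fold change are named per comparison, beside genes overlapping a member and the 3 genes most like each member. The marker genes are named as a list, and the neighbours of the cadherin cluster were named after their values were seen. Values of some list and marker genes are not reported here. Likeness was taken over genes tested in all comparisons with an SD of at least 0.5. Figures of FPKM levels without an error are means of 4 libraries. All 18 pairs of replicates differed by more than counting noise (chi-square per gene between 17.3 and 215). Python 3.11.15, numpy 2.4.6, pandas 2.3.3, scipy 1.17.1 and matplotlib 3.10.9 were used. Alternatives were another pseudocount (0.1), filters, scalings, voom on recovered reads, GC correction, a replicate block, 1 fit over all lines, leaving out libraries, and exact permutation tests (two-sided).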

Additional observations from a re-analysis of the deposited data

Results flagged for a closer look

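DSG3 in DU145 replicate 1, at 0.0447 FPKM (4 reads), stood apart from the other 3 DU145 libraries, which were at 0. With the other 3 at 0, any read in 1 library of the group would have been marked, and 1 of the 29 groups of 4 libraries examined is about what chance gives, since it marks about 5% of groups.

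PKP1 changed in opposite directions from BPH-1 in the 2 cancer lines, up in PC3 and down in DU145. PC3 against DU145 gave a log2 fold change of 5.95 (adjusted p = 1.31e-07, limma), higher in 4 of 4 PC3 libraries than in any DU145 library. With 58 reads in DU145, PKP1 passed the filter only through PC3 and could only be called higher. This comparison gives the gap between the cancer lines and does not test a rise over BPH-1. That rise was 0.34 (adjusted p = 0.0906, limma) with the GC trend divided out.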

How the results depend on the processing

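Against BPH-1, the number of members called stayed within 1.5 times of 10 under every alternative run (8 to 10 in PC3 and in DU145); a stricter filter removed DSG3 from both comparisons and PKP1 from DU145. Single members kept direction and side of the threshold in 208 of 208 alternatives for DU145 and 187 of 189 for PC3, the exceptions being DSC2 (-0.10) and PKP1 (0.34) with the GC trend divided out. PC3 against DU145 was less stable: 5 calls became 3 when an absolute log2 fold change over 1 was required or by the exact permutation test, and 3 to 4 when single libraries were left out (3 without PC3 replicate 3). Leaving out single libraries moved DSG2 between -0.84 and 0.13 and DSC3 between -0.26 and 0.51, so neither has a stable sign. Without DU145 replicates 2 and 4, chosen after seeing the data, DSG2 was at 0.86 and 5 members were called, DSP (1.85) among them and JUP not. Without replicates 1 and 3 DSC3 was at -0.82 and 6 were called, DSG2 (-1.46) and PKP3 (0.64) among them and DSC2 not. The cause was not tested. Replicate numbers did not pair the libraries (same-number correlations between -0.72 and 0.57), and a replicate block gave 10, 10 and 4 calls, DSC2 being lost in PC3 against DU145 (adjusted p = 0.0586). Shares from recovered reads were 64.4%, 73.0% and 53.6% for DSC3 (BPH-1, DU145, PC3), 57.7% and 2.06% for PKP1 (BPH-1, DU145), and 12.5% and 5.0% for PKP2 (BPH-1, PC3). With merged exons they were 76.1% and 67.1% for DSC3 (BPH-1, PC3) and 49.1%, 1.30% and 80.5% for PKP1 (BPH-1, DU145, PC3). Scaling shifted the median of all genes against BPH-1 by 0.23 (PC3) and 0.16 (DU145) with upper quartiles and by -0.16 and -0.14 with equal sums; 55.3% and 57.3% of calls were then higher with upper quartiles and 30.3% and 38.6% with equal sums, beside 40.2% and 48.4% as deposited. Under these scalings each member kept its direction and call against BPH-1.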
